A study of Mus musculus with 8 samples.

Results

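The matrix metalloproteinases (Mmp genes), the ADAMTS proteases (Adamts genes) and the tissue inhibitors of metalloproteinases (Timp genes) were followed in brown adipose tissue (BAT) of mice. Members were all autosomal genes of the table whose symbol begins with Mmp, Adamts or Timp and a number, without pseudogenes, the Adamts-like genes and 1 gene of the Mmp family. This gave 44 genes, 22 Mmp, 19 Adamts and 3 Timp, of 49452 in the table. BAT of 8 male C57BL/6 mice was sequenced in 4 groups of 2. For the temperature experiment, mice aged 10 to 12 weeks were housed at 22 °C (replicates 4 and 7) or spent 24 h at 4 °C (replicates 2 and 11). For the diet experiment, mice reached an age of 32 weeks after 28 weeks on a control diet (CD, replicates 6 and 8) or a high-fat diet (HFD, replicates 2 and 6). No group carried a transgene or deletion by its labels, the food of the CD group is called normal chow there, and the study's methods describe a fast at the end of the cold exposure. The labels list each library as a sample of its own, and the p-values measure the spread between 2 libraries of a group. Levels are FPKM, fragments scaled to transcript length and to the mapped fragments of the library, so that members can be set side by side. Log2 changes are those of FPKM + 1 with the standard error (SE) and adjusted p of limma. For each group, the values stand in the order of the replicate numbers given above.

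MMPs are zinc proteases that cut collagens and other proteins of the extracellular matrix, and they are made as inactive precursors whose propeptide has to be removed. Most are secreted, whereas the membrane-type MMPs act at the cell surface. ADAMTS proteases are secreted zinc proteases with thrombospondin repeats, and their best known substrates are the large proteoglycans aggrecan and versican, the propeptides of fibrillar collagens and von Willebrand factor. TIMPs block the active site of MMPs and, in the case of Timp3, also of several ADAMTS and ADAM proteases. In adipose tissue these enzymes and inhibitors take part in the turnover of the matrix around adipocytes and vessels.

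A cluster of 9 Mmp members lies on chromosome 9 within chr9:7272514-7699585 (GRCm38), and its promoters are shown because all AP-1 matches among the members' promoters fell there. In the RefSeq promoters of assembly GRCm38.p6, from 250 bases before to 50 bases after a start, 32 promoters matched 30 of the 44 members. The AP-1 motif, searched as TGANTCA on both strands (it is its own reverse complement), occurred in 7 of the 32, or 21.9%, beside 7.81% of all 32851 promoters of this length. All 7 belonged to genes of the cluster, and the exceptions there were Mmp8 and Mmp27. The cAMP response element, searched as TGACGTCA, occurred in 0 of the 32 member promoters and in 1.79% of all. A match describes the letters and is not a binding site. The 100 bases before the start are given for 6 of the 9 genes, namely Mmp3, the cluster gene with the highest level, both genes without the motif, and 3 others, all on the plus strand, with AP-1 matches in capitals. Their windows were chr9:7272414-7272513, chr9:7445722-7445821, chr9:7464041-7464140, chr9:7502242-7502341, chr9:7558329-7558428 and chr9:7571296-7571395 in the order printed.
Mmp13: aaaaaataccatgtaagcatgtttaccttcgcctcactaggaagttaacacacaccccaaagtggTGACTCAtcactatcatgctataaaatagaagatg
Mmp3: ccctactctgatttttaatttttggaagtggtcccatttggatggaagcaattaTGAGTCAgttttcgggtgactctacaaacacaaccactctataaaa
Mmp1a: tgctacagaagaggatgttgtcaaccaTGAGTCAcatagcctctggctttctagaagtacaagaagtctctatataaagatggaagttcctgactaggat
Mmp10: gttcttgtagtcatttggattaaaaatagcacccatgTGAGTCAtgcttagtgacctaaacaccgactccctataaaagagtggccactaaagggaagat
Mmp8: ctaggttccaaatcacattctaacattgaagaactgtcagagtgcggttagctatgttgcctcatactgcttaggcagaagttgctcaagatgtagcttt
Mmp27: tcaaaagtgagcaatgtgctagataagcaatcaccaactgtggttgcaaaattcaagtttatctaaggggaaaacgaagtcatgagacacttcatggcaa
Counted back from the start, the first base of the motif stood at position -35 in Mmp13, -46 in Mmp3, -73 in Mmp1a and -63 in Mmp10. In the genes not printed it stood at -93 in Mmp1b, -95 in Mmp20 and -63 in Mmp7.

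The libraries differed in ways that bear on the members. Between 10228 and 11436 genes per library reached 1 FPKM, and on a transcript of 2000 bases 1 fragment was worth 0.00440 to 0.00603 FPKM. Genes of the X chromosome were all listed at 0 in both 22 °C libraries and in CD replicate 6, so that a 0 can be a missing estimate. The satellite-repeat gene Gm10800 exceeded 100 FPKM once in every group, namely in replicate 4 of 22 °C, 11 of 4 °C, 8 of CD and 2 of HFD. These are called satellite-high here, and values within each library type are given beside the main results. The description labels of CD replicate 8 and both HFD libraries begin with another prefix than those of the other 5 libraries. Brown adipocyte markers were high throughout (summed level of the 10 markers 2328 to 8679 FPKM). The 11 skeletal muscle markers summed to 579 and 142 FPKM at 22 °C, 4728 and 1984 FPKM at 4 °C, 626 and 1530 FPKM in CD and 201 and 40.1 FPKM in HFD. They were higher in both 4 °C libraries for 11 of 11 markers and lower in both HFD libraries for 10 of 11. The 9 macrophage markers summed to 137 and 52.5 FPKM in CD and to 285 and 321 FPKM in HFD, higher in both HFD libraries for 9 of 9. At 22 °C they summed to 95.5 and 68.8 FPKM and at 4 °C to 161 and 79.9 FPKM. The 10 fibroblast and adipocyte progenitor markers summed to 239 and 204 FPKM in CD and to 618 and 767 FPKM in HFD, higher in both HFD libraries for 8 of 10. The 6 white adipocyte markers summed to 20.7 and 11.9 FPKM in CD and to 164 and 172 FPKM in HFD, where Lep and Nnat passed the threshold of limma and 3 of the 4 tested were higher in both libraries. They summed to 141 and 79.8 FPKM at 22 °C and 250.3 and 127 FPKM at 4 °C, most of it Retn, with 2 of the 4 tested higher and 2, Lep and Nnat, lower in both 4 °C libraries. The 6 mast cell markers summed to 2.96 and 3.70 FPKM in CD and to 10.6 and 10.4 FPKM in HFD, higher in both HFD libraries for 4 of the 5 tested. The 8 endothelial markers summed to 83.4 and 82.9 FPKM in CD and to 123 and 136 FPKM in HFD, higher in both HFD libraries for 5 of 8. The 7 mural and smooth muscle markers summed to 105 and 72.0 FPKM in CD and to 120.2 and 160 FPKM in HFD, higher in both for 5 of 7. The part of these cell types in the members' values was not tested. In tissue RNA, a change in the number of cells of a type and a change in the RNA per cell cannot be told apart.

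**Figure D1:**
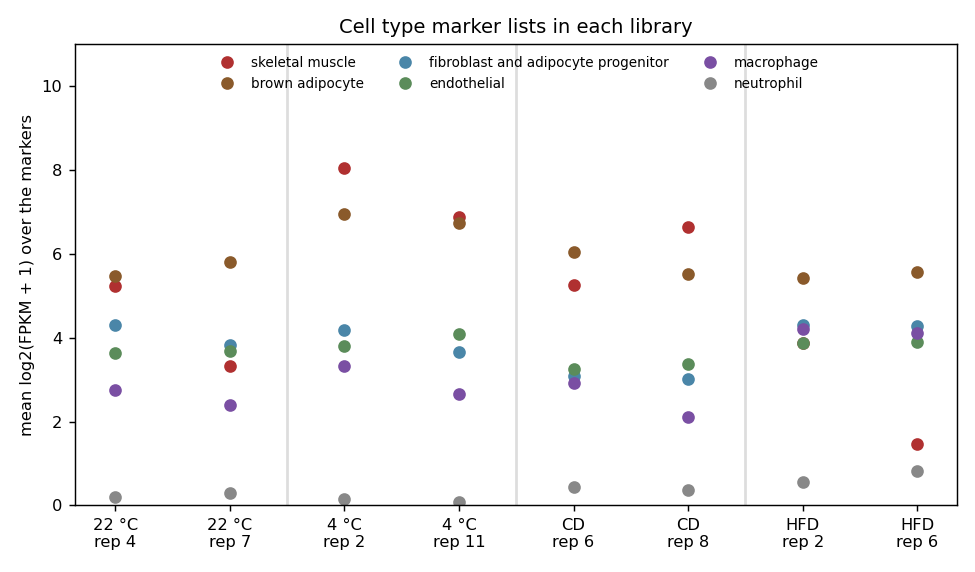
Mean log2(FPKM + 1) over the markers of 6 cell types in each of the 8 libraries, 1 point per list and library. The muscle list spans the widest range, from 1.46 in HFD replicate 6 to 8.04 in 4 °C replicate 2, and the macrophage list is highest in the HFD libraries.

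Of the 44 members, 19 reached a mean of 1 FPKM in at least 1 group (3 Timp, 9 Mmp and 7 Adamts), 13 reached 0.1 but not 1 FPKM (5 Mmp and 8 Adamts), and 12 stayed under 0.1 FPKM in every group (8 Mmp and 4 Adamts). Taken as a sum, the inhibitors were the most abundant family. Summed over the 3 genes, Timp levels made up 46.2% to 57.1% of the sum of all members in a library. Timp3 alone, the member with the highest level in each of the 8 libraries, gave 43.8% to 58.4% of that Timp sum.

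**Figure D2:**
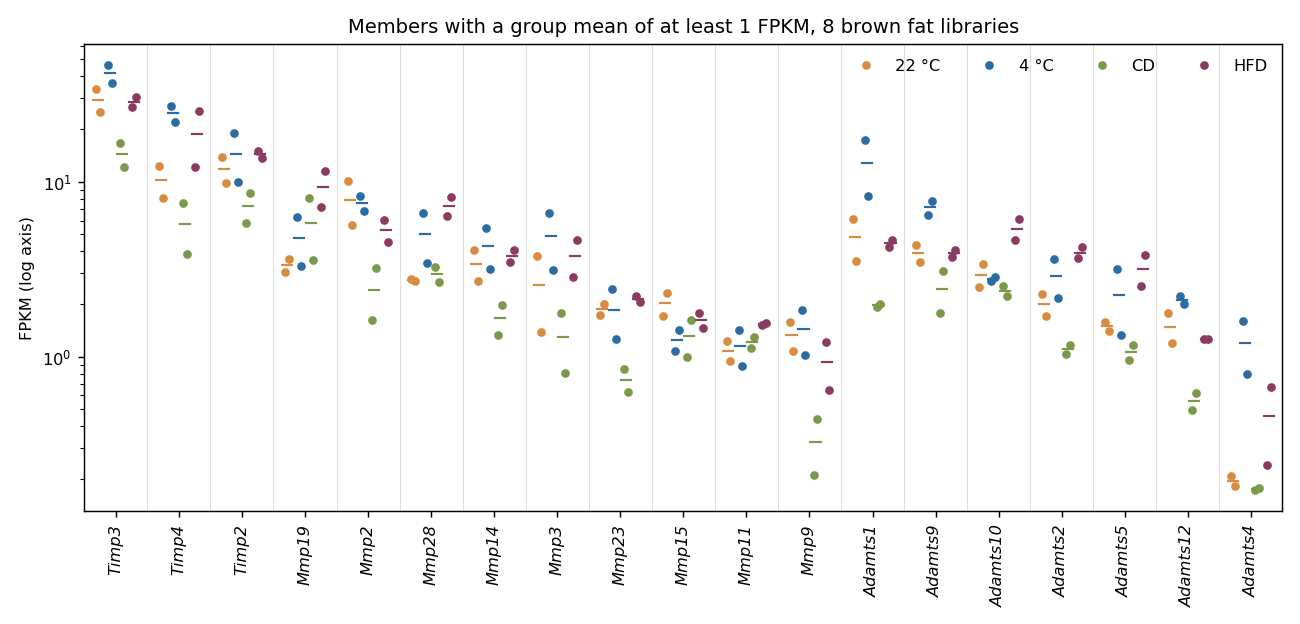
FPKM on a log axis of the 19 members with a group mean of at least 1 FPKM, 2 points per group and a bar at their mean, ordered by family and level. Timp3 is highest in every library, and for most members the HFD points lie above the CD points.

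Summed Timp levels were 59.9 and 43.1 FPKM at 22 °C and 92.5 and 68.7 FPKM at 4 °C. In the diet experiment they were 30.0 and 24.7 FPKM in CD and 53.9 and 69.3 FPKM in HFD, and neither pair of groups overlapped. The 19 Adamts members summed to 20.5 and 16.3 FPKM at 22 °C, 39.2 and 26.5 FPKM at 4 °C, 10.3 and 12.03 FPKM in CD and 22.5 and 27.3 FPKM in HFD, again without overlap. The 22 Mmp members summed to 30.9 and 23.0 FPKM at 22 °C and 41.2 and 25.2 FPKM at 4 °C, which overlap, and to 19.9 and 16.7 FPKM in CD and 33.3 and 40.5 FPKM in HFD, which do not. The ratio of summed Timp to summed Mmp levels, which no rescaling of a whole library alters, was 1.94 and 1.87 at 22 °C and 2.25 and 2.72 at 4 °C. It was 1.51 and 1.48 in CD and 1.62 and 1.71 in HFD. Both ratios were thus higher in the exposed group. Over all proteases together the ratio overlapped in both experiments, at 1.17 and 1.10 against 1.15 and 1.33 for temperature, and at 0.996 and 0.858 against 0.966 and 1.02 for diet. These sums were described and not tested.

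**Figure D3:**
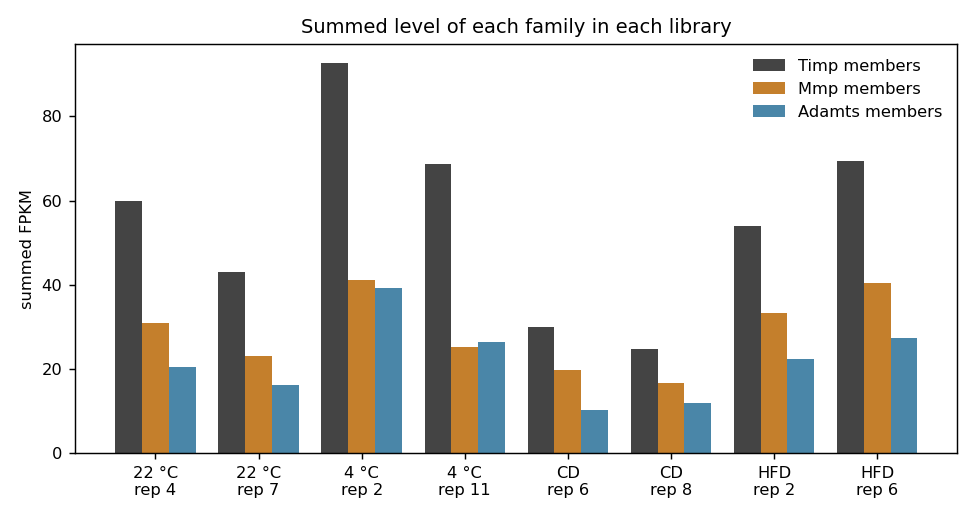
Summed FPKM of the 3 Timp, 22 Mmp and 19 Adamts members in each library, bars starting at 0. The Timp sum is the tallest bar in all 8 libraries, from 24.7 in CD replicate 8 to 92.5 in 4 °C replicate 2.

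The first comparison asked how the members' transcripts differ in BAT after 24 h at 4 °C. Of the 44 members, 27 passed the filter on low values (0.1 FPKM or more in 2 or more libraries of the comparison), 11 Mmp, 13 Adamts and 3 Timp. None passed the threshold of limma (adjusted p under 0.05 and a 2-fold change on the log2(FPKM + 1) scale), which 1.44% of all genes tested passed. At an unadjusted p under 0.05 limma counted 7 of the 27 members (25.9%), beside 24.5% of all genes tested. The 7 were Timp4, Adamts1, Adamts3, Adamts4, Adamts7, Adamts9 and Mmp17. On the log2(FPKM + 1) scale, Timp4 and Adamts1 reached a 2-fold higher level (2 of 27, beside 5.44% of all genes tested), and 0 members a 2-fold lower one (0.835%). With 0.1 added in place of 1, the count of members at a 2-fold higher level was 3. It was 0 after median centring and after quantile normalization. Ratios of means also exceeded 2 for Adamts4 (6.15), Adamts3 (2.27) and Mmp27 (2.19). Groups did not overlap, with 4 °C higher, for 9 members, 33.3% beside 37.9% of all genes tested. They did not overlap with 4 °C lower for Mmp15, Adamts7 and Adamts14, 3 of 27 beside 20.6%. The members' share was therefore near the background for higher levels and under it for lower ones. The median log2 fold change was 0.25 over the 27 members and 0.07 over all genes tested. It depended on the library type, at -0.01 between the satellite-high libraries and 0.56 between the satellite-low ones. After median centring, which moved the median of all genes tested to -0.17, the members' median was 0.01, and 5 members lay apart and higher and 7 apart and lower (20.4% and 46.4% of all genes tested).

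The second comparison asked the same of HFD against CD. Here 28 members were tested (13 Mmp, 12 Adamts and 3 Timp), 25 of them in both comparisons. Again none passed the threshold, which 0.0684% of all genes tested passed. At an unadjusted p under 0.05 limma counted 17 of the 28 (60.7%), beside 14.4% of all genes tested. On the log2(FPKM + 1) scale, Timp4, Adamts2, Mmp28 and Mmp3 reached a 2-fold higher level (4 of 28, beside 3.46%), and 0 members a 2-fold lower one (0.935%). With 0.1 added in place of 1, the count of members at a 2-fold higher level was 15. It was smaller than 4 after median centring and after quantile normalization. Ratios of means exceeded 2 for further members, such as Adamts5 (2.97) and Mmp23 (2.89). In 23 of 28 members, 82.1%, both HFD libraries lay above both CD libraries, beside 39.9% of all genes tested. Adamts14 and Mmp24 reached 0.1 FPKM in the HFD libraries only, which favours that order, and without such genes the count was 21 of 26 members beside 38.6% of all genes. The reverse held for 0 members, beside 5.8% of all genes tested, and Mmp19, Mmp15, Mmp13, Mmp8 and Adamts3 overlapped. Counted without overlap after median centring, 10 members lay higher and 2 lower, where 11.5% and 25.5% of all genes tested did. Of the 28 log2 fold changes 27 were above 0, and 16 after median centring, which moved the median of all genes tested from 0.18 to -0.17. The members' median was 0.54 as deposited, 0.19 after centring and 0.33 after quantile normalization. It was 0.53 between the satellite-high and 0.57 between the satellite-low libraries. With library type as a term in the model, Timp4 (adjusted p = 0.00554), Adamts2 (0.00730), Mmp3 (0.00892) and Mmp28 (0.0102) passed the threshold of limma, as did 745 of all genes (4.25%). Without CD replicate 6, which leaves 3 libraries that share a label prefix, Timp4 (log2 fold change 1.93, adjusted p = 0.00553) and Mmp3 (1.37, adjusted p = 0.0162) passed it, as did 726 of all genes (4.22%).

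Among the inhibitors, Timp4 differed most in both comparisons. It is an inhibitor found mainly in heart, brain and adipose tissue (chr6:115241892-115252205). Its level was 12.3 and 8.12 FPKM at 22 °C and 27.2 and 22.0 FPKM at 4 °C, 2.41-fold higher in the means, with a log2 change of 1.21 (SE 0.26, adjusted p = 0.0761). The groups did not overlap, and the log2 difference was 0.79 between the satellite-high and 1.63 between the satellite-low libraries. In CD it was 7.55 and 3.87 FPKM and in HFD 12.1 and 25.3 FPKM, 3.28-fold higher in the means, with a log2 change of 1.53 (SE 0.47, adjusted p = 0.221). Both HFD libraries were higher, although they differed from each other by more than 2-fold, and the log2 difference was 1.43 and 1.62 between satellite-high and satellite-low libraries. Timp4 lies inside the synapsin gene Syn2 on the opposite strand, which had the same order of groups. Syn2 stood at 1.02 and 0.708 FPKM at 22 °C and 5.97 and 4.15 FPKM at 4 °C, and at 0.778 and 0.5996 FPKM in CD and 1.45 and 2.91 FPKM in HFD. Its part in the Timp4 values was not tested.

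Timp3, the inhibitor that binds to the matrix (chr10:86300372-86349506), stood at 33.7 and 25.1 FPKM at 22 °C and 46.3 and 36.8 FPKM at 4 °C. The groups did not overlap, but the log2 change of 0.49 (SE 0.25, adjusted p = 0.293) was -0.02 after quantile normalization. In CD it stood at 16.6 and 12.1 FPKM and in HFD at 26.7 and 30.3 FPKM, a log2 change of 0.95 (SE 0.39, adjusted p = 0.327). It lies inside Syn3 on the opposite strand, which reached at most 0.270 FPKM. Timp2, which also takes part in activating proMMP2 at the cell surface, was at 13.9 and 9.80 FPKM at 22 °C and 19.0 and 9.95 FPKM at 4 °C, overlapping, with a log2 change of 0.22 (SE 0.35, adjusted p = 0.738) that was negative after either rescaling. With diet it was at 5.82 and 8.65 FPKM in CD and 15.0 and 13.7 FPKM in HFD, a log2 change of 0.92 (SE 0.36, adjusted p = 0.305). All 3 inhibitors were thus higher in both HFD libraries, and their diet fold changes stayed above 0 after median centring and after quantile normalization.

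The gelatinases Mmp2 and Mmp9 cleave denatured collagen and basement membrane collagen. Mmp2 (chr8:92827291-92853420) was at 10.1 and 5.66 FPKM at 22 °C and 8.27 and 6.81 FPKM at 4 °C, so that the groups overlapped and the log2 fold change was -0.01 (SE 0.29). Its levels in CD were 1.61 and 3.21 FPKM, and those in HFD 6.01 and 4.54 FPKM, with a log2 change of 0.91 (SE 0.34, adjusted p = 0.297). Mmp9 (chr2:164940780-164955850), abundant in neutrophils and macrophages, was lower, at 1.58 and 1.08 FPKM at 22 °C and 1.84 and 1.03 FPKM at 4 °C. In CD it had 0.212 and 0.442 FPKM, and in HFD 1.22 and 0.644 FPKM, a log2 change of 0.53 (SE 0.18, adjusted p = 0.258). Both gelatinases were therefore higher in both HFD libraries and overlapped between temperatures, where the small positive value of Mmp9 (0.05) turned negative after either rescaling. The 8 neutrophil markers summed to 4.50 and 3.17 FPKM in CD and 6.29 and 14.5 FPKM in HFD, with Ly6g listed at 0 in 6 of the 8 libraries. Most of that sum came from S100a8 (2.66 and 7.03 FPKM in HFD) and S100a9 (3.18 and 6.998 FPKM). Of the 8 markers, 4 were higher in HFD replicate 6 than in HFD replicate 2 and 4 lower.

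Mmp3, a stromelysin that cuts proteoglycans and fibronectin and activates other MMPs (chr9:7445822-7455975), was the sole gene of the chromosome 9 cluster to reach 1 FPKM. It stood at 3.77 and 1.38 FPKM at 22 °C and 6.59 and 3.14 FPKM at 4 °C, which overlap (log2 fold change 0.74, SE 0.44, adjusted p = 0.357). The log2 difference was -0.20 between the satellite-high and 1.67 between the satellite-low libraries. In the diet experiment it stood at 1.79 and 0.806 FPKM in CD and 2.84 and 4.66 FPKM in HFD, from about 125 fragments in CD replicate 8 to 697 in HFD replicate 6. The log2 fold change was 1.06 (SE 0.33, adjusted p = 0.228), with 1.09 and 1.02 between the satellite-high and satellite-low libraries. Mmp11, a stromelysin that is activated inside the cell (chr10:75923222-75932502), stayed between 0.882 and 1.57 FPKM in all 8 libraries. Its log2 fold changes of 0.04 for cold and 0.20 for diet turned negative after either rescaling.

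Mmp19 and Mmp28 are secreted MMPs outside the classical groups. Mmp28, also called epilysin (chr11:83440768-83463071), was at 2.79 and 2.69 FPKM at 22 °C and 6.63 and 3.42 FPKM at 4 °C, a log2 change of 0.63 (SE 0.29, adjusted p = 0.254). In CD it was at 3.26 and 2.66 FPKM and in HFD at 6.35 and 8.19 FPKM, 2.46-fold higher in the means (log2 fold change 1.06, SE 0.31, adjusted p = 0.207). The exposed libraries were the higher ones in both experiments, and the diet difference was alike in both library types, 1.01 and 1.11. The cold difference was 0.22 between the satellite-high and 1.05 between the satellite-low libraries. Mmp28 overlaps 1700020L24Rik on the opposite strand, which had the same order of groups at like levels, 2.21 and 1.99 FPKM at 22 °C, 4.68 and 2.97 FPKM at 4 °C, 2.85 and 1.71 FPKM in CD and 4.23 and 5.54 FPKM in HFD. Its part in the Mmp28 values was not tested. Mmp19 (chr10:128790953-128800824) reached the highest Mmp level in both HFD libraries, 7.13 and 11.6 FPKM, but CD replicate 6 (8.08 FPKM) lay between them while CD replicate 8 had 3.58 FPKM. At 22 °C it had 3.03 and 3.63 FPKM and at 4 °C 6.28 and 3.29 FPKM, so that both comparisons overlapped. Mmp19 overlaps Tmem198b on the opposite strand. That gene had 2.14 and 2.29 FPKM at 22 °C and 3.10 and 2.02 FPKM at 4 °C. In CD it had 3.57 and 2.12 FPKM and in HFD 3.59 and 5.25 FPKM. The part of Tmem198b in the Mmp19 values was not tested.

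Of the membrane-anchored MMPs, Mmp14, Mmp15 and Mmp23 reached 1 FPKM. Mmp14, a collagenase of the cell surface and the main activator of proMMP2 (chr14:54431612-54441265), had 4.09 and 2.71 FPKM at 22 °C and 5.44 and 3.17 FPKM at 4 °C, overlapping. It had 1.33 and 1.98 FPKM in CD and 3.45 and 4.09 FPKM in HFD, a log2 change of 0.85 (SE 0.28, adjusted p = 0.245). Mmp14, Mmp2 and Timp2, whose products act together in proMMP2 activation, had the same order of groups in the diet experiment, as 23 of 28 members did, and overlapped in the temperature experiment, as 15 of 27 did. Mmp23, anchored by its N-terminus (chr4:155650655-155653384), had 1.72 and 2.002 FPKM at 22 °C and 2.42 and 1.26 FPKM at 4 °C. With diet it had 0.848 and 0.626 FPKM in CD and 2.22 and 2.04 FPKM in HFD, 2.89-fold higher in the means (log2 fold change 0.85, SE 0.21, adjusted p = 0.169). Mmp15 (chr8:95352268-95375080) was the member with the lowest log2 fold change at 4 °C, -0.42 (SE 0.18, adjusted p = 0.234), with 1.71 and 2.32 FPKM at 22 °C and 1.08 and 1.42 FPKM at 4 °C. In CD it had 0.993 and 1.62 FPKM and in HFD 1.77 and 1.45 FPKM, which overlap. The lipid-anchored Mmp17 was lower, at 0.256 and 0.250 FPKM at 22 °C and 0.407 and 0.426 FPKM at 4 °C (log2 fold change 0.18, SE 0.07, adjusted p = 0.182, and -0.07 after median centring). Mmp24 stayed between 0.0215 and 0.120 FPKM in all libraries, with a diet log2 change of 0.06 (SE 0.06).

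Adamts1 cuts the proteoglycans versican and aggrecan (chr16:85793827-85803113). It stood at 6.15 and 3.52 FPKM at 22 °C and 17.2 and 8.25 FPKM at 4 °C, 2.63-fold higher in the means, with a log2 change of 1.19 (SE 0.40, adjusted p = 0.157). Both 4 °C libraries were higher, and the log2 difference was 0.37 between the satellite-high and 2.01 between the satellite-low libraries. In CD it stood at 1.92 and 2.004 FPKM and in HFD at 4.22 and 4.65 FPKM, a log2 change of 0.88 (SE 0.27, adjusted p = 0.225). Adamts4, an aggrecanase (chr1:171250421-171260637), had the largest ratio of means of the members tested at 4 °C, 6.15, from 0.207 and 0.182 FPKM at 22 °C to 1.59 and 0.799 FPKM at 4 °C. That is from about 108 and 93 fragments to 608 and 353. Because 1 is added before the logarithm, its log2 fold change is smaller, 0.85 (SE 0.18, adjusted p = 0.0754), and the log2 difference was 0.58 between the satellite-high and 1.13 between the satellite-low libraries. Without 4 °C replicate 11 it passed the threshold of limma (1.12, adjusted p = 0.0475, with 2.57% of all genes), and without 4 °C replicate 2 it had 0.59 (adjusted p = 0.121). In CD it had 0.173 and 0.177 FPKM and in HFD 0.241 and 0.669 FPKM, a log2 fold change of 0.29 that was -0.05 after median centring.

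Adamts9, a versican protease (chr6:92772699-92943492), had 4.32 and 3.48 FPKM at 22 °C and 6.47 and 7.78 FPKM at 4 °C, a log2 change of 0.73 (SE 0.20, adjusted p = 0.110) that was 0.72 in the satellite-high and 0.74 in the satellite-low libraries. With diet it had 1.78 and 3.10 FPKM in CD and 3.74 and 4.09 FPKM in HFD (0.54, SE 0.31, adjusted p = 0.487). It overlaps A730049H05Rik on the opposite strand. That gene was also higher in both 4 °C libraries (1.18 and 1.22 FPKM) than at 22 °C (0.526 and 0.497 FPKM). Gm15737, on the same strand as A730049H05Rik, had that order too (0.485 and 0.599 FPKM against 0.325 and 0.309 FPKM). In contrast, 9530026P05Rik on that strand was lower at 4 °C (1.22 and 0.822 FPKM) than at 22 °C (2.73 and 2.44 FPKM). The part of these genes in the Adamts9 values was not tested. Of Timp4, Adamts1, Adamts4 and Adamts9, the last had the cold difference that varied least between library types. Adamts5, an aggrecanase whose gene lies 55056 bases from Adamts1 on the same strand (chr16:85858170-85901125), overlapped between temperatures, at 1.58 and 1.40 FPKM against 3.15 and 1.33 FPKM. Its diet values were 0.955 and 1.17 FPKM in CD and 2.52 and 3.79 FPKM in HFD, a log2 change of 0.996 (SE 0.27, adjusted p = 0.188). The neighbours Adamts1 and Adamts5 had the same order of groups for diet, as most members did, and Adamts1 alone lay apart for cold. Adamts15, which also cuts versican, was under 1 FPKM in 7 of 8 libraries and higher in both HFD libraries (0.485 and 0.596 FPKM) than in CD (0.227 and 0.251 FPKM).

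Adamts2, Adamts3 and Adamts14 remove the N-propeptides of fibrillar procollagens. Adamts2 (chr11:50602084-50807573) had the smallest adjusted p of the members for diet, 0.151, at 1.03 and 1.16 FPKM in CD and 3.65 and 4.21 FPKM in HFD, 3.58-fold higher in the means (log2 fold change 1.23, SE 0.26). The difference was 1.10 between the satellite-high and 1.36 between the satellite-low libraries. At 22 °C it had 2.29 and 1.71 FPKM and at 4 °C 3.60 and 2.17 FPKM, overlapping. Adamts14 was lower in level, with 0.0752 and 0.0576 FPKM in CD and 0.206 and 0.266 FPKM in HFD, 3.56-fold higher in the means from about 45 and 27 to 105 and 121 fragments (log2 fold change 0.21, SE 0.07, adjusted p = 0.251, and -0.13 after median centring). Of these 4 libraries only those of HFD reached the filter's 0.1 FPKM, which favours that order. At 4 °C both of its libraries (0.109 and 0.0946 FPKM) lay under those at 22 °C (0.179 and 0.126 FPKM). Adamts3 had the only negative diet value, -0.09 (SE 0.10), with 0.317 and 0.409 FPKM in CD and 0.229 and 0.331 FPKM in HFD. At 4 °C, in contrast, it had 0.414 and 0.252 FPKM beside 0.153 and 0.140 FPKM at 22 °C (0.21, SE 0.08, adjusted p = 0.177, and -0.03 after median centring).

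Adamts7 and Adamts12 cleave cartilage oligomeric matrix protein. Adamts12 (chr15:11064790-11346867) had 1.78 and 1.19 FPKM at 22 °C and 2.23 and 1.99 FPKM at 4 °C (log2 fold change 0.33, SE 0.19, adjusted p = 0.326). The change was 0.09 after median centring, 0.11 between the satellite-high and 0.56 between the satellite-low libraries. It was 0.16 without 22 °C replicate 7 and 0.51 without 22 °C replicate 4. In CD Adamts12 had 0.492 and 0.623 FPKM and in HFD 1.26 and 1.25 FPKM, a log2 change of 0.54 (SE 0.17, adjusted p = 0.221). Adamts7 went the other way at 4 °C, with 0.347 and 0.419 FPKM at 22 °C and 0.226 and 0.191 FPKM at 4 °C (-0.19, SE 0.07, adjusted p = 0.164). With diet it had 0.238 and 0.243 FPKM in CD and 0.421 and 0.508 FPKM in HFD (0.24, SE 0.10, adjusted p = 0.331, and -0.11 after median centring). Its gene overlaps Tbc1d2b on the opposite strand, which had the same order of groups at a higher level, 2.89 and 2.86 FPKM at 22 °C, 1.35 and 1.33 FPKM at 4 °C, 2.08 and 1.57 FPKM in CD and 2.90 and 3.65 FPKM in HFD. The part of Tbc1d2b in the Adamts7 values was not tested. Adamts10, which is linked to fibrillin microfibrils (chr17:33524204-33553782), overlapped between temperatures at 2.51 to 3.37 FPKM. Its levels were 2.52 and 2.23 FPKM in CD and 4.63 and 6.12 FPKM in HFD, a log2 change of 0.91 (SE 0.30, adjusted p = 0.239). It had the highest level of the Adamts members in both HFD libraries, whereas Adamts1 had the highest at 4 °C.

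Most genes of the chromosome 9 cluster were near the detection limit. Mmp1a, Mmp1b, Mmp7, Mmp10 and Mmp20, which comprise collagenases, matrilysin, a stromelysin and enamelysin, were listed at 0 in 5 to 7 libraries each and never exceeded 3 fragments. Mmp8, a collagenase of neutrophils, had 0.111 and 0.0233 FPKM in CD and 0.0872 and 0.629 FPKM in HFD, so that HFD replicate 6 stood apart. Mmp13, the main collagenase of rodents, was higher in all 4 libraries of the diet experiment (0.0799 to 0.497 FPKM) than in all 4 of the temperature experiment (0.00886 to 0.0296 FPKM). Mmp27 had the reverse order, with 0.166 to 0.708 FPKM in the temperature and 0.0336 to 0.0943 FPKM in the diet libraries. Adamts6, outside the cluster, was higher in the diet libraries as well (0.299 to 0.612 FPKM against 0.117 to 0.204 FPKM). Mmp13 passed the filter on low values through the diet libraries alone and Mmp27 through the temperature libraries alone. Of 18902 genes, 1.85% were higher throughout the diet libraries and 4.38% throughout the temperature libraries. Age and treatment differ between these sets of libraries, and their parts cannot be told apart. The label prefix also differs, except that CD replicate 6 has that of the temperature libraries. The part of the prefix was not tested.

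**Figure D4:**
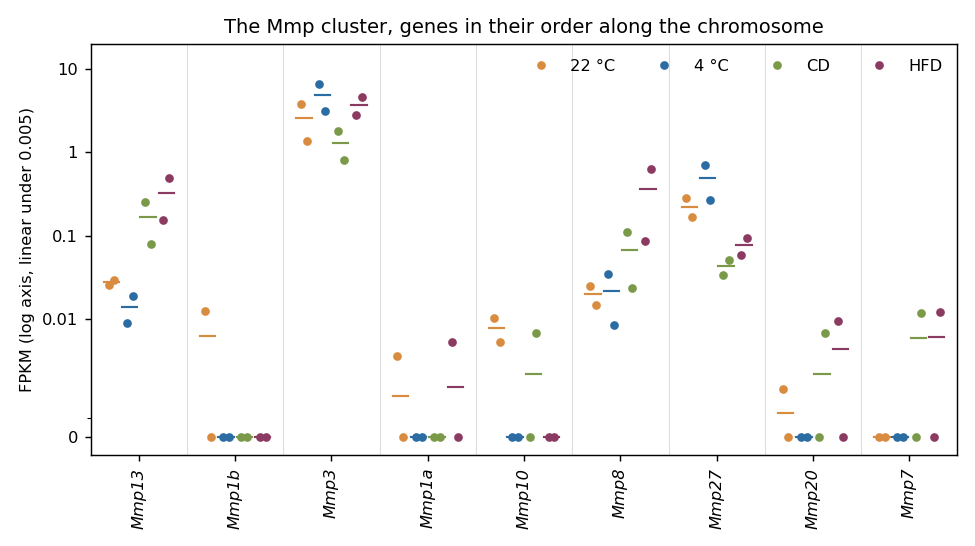
FPKM of the 9 Mmp genes of the chromosome 9 cluster in their order along the chromosome, 2 points per group and a bar at their mean, on an axis that is logarithmic above 0.005 FPKM and linear below. Mmp3 stands above 0.8 FPKM in every library, and Mmp13 and Mmp27 differ in opposite directions between the temperature and the diet libraries.

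Besides these 5 cluster genes, the members under 0.1 FPKM in every group were Mmp16, Mmp21, Mmp25, Adamts8, Adamts13, Adamts18 and Adamts19, among which Mmp16 had the highest single value, 0.108 FPKM in 22 °C replicate 4. Adamts13, which cuts von Willebrand factor and is made mainly in liver, was listed at 0 in both 4 °C libraries and reached at most 0.0432 FPKM. Adamts16, with a mean of 0.102 FPKM at 22 °C, did not pass the filter on low values in either comparison. It had 0.129 and 0.0743 FPKM at 22 °C and 0.0177 and 0.00192 FPKM at 4 °C. That is from about 78 and 44 fragments to about 8 and 1, and the difference was not tested.

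Genes of the same pathway were followed in 6 lists of activators, regulators and substrates. In the cold comparison, 2 of these genes passed the threshold of limma, which 1.44% of all genes tested passed, and both were higher at 4 °C. Adam12, a membrane protease that sheds growth factor precursors and is expressed in developing muscle and fat, had 8.66 and 8.08 FPKM at 22 °C and 62.2 and 49.6 FPKM at 4 °C (log2 fold change 2.59, SE 0.21, adjusted p = 0.0206). Ctsz, a lysosomal cathepsin, had 40.1 and 41.8 FPKM at 22 °C and 218 and 199 FPKM at 4 °C (2.32, SE 0.23, adjusted p = 0.0246). Both calls were lost without 4 °C replicate 2 (adjusted p = 0.0859 and 0.109), with no filter on low values (0.130 and 0.153), without the intensity trend (0.0596 and 0.0593) and with the muscle score as a covariate (0.130 and 0.191). In these fits 1, 0, 0 and 0 of all genes passed, and over the 15 settings the log2 change stayed at 2.17 to 2.80 for Adam12 and at 1.79 to 2.70 for Ctsz. The 11 skeletal muscle markers were higher in both 4 °C libraries too, and their part in these values was not tested. The difference was alike in both library types, 2.39 and 2.80 for Adam12 and 2.28 and 2.36 for Ctsz. In the diet comparison 0 genes of the 6 lists passed the threshold, beside 0.0684% of all genes tested.

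Of the plasminogen system, whose protease plasmin can activate proMMPs, 7 of 10 genes were tested. In the diet comparison 6 of the 7 lay apart and higher in HFD. On the log2(FPKM + 1) scale 5 reached a 2-fold higher level, beside 3.46% of all genes tested. The list's median log2 fold change was 1.23 for diet and 0.01 for cold, beside 0.18 and 0.07 over all genes tested. Plau, the urokinase activator, had 4.53 and 1.39 FPKM in CD and 9.54 and 10.1 FPKM in HFD (1.57, SE 0.43, adjusted p = 0.191). For procollagen processing and cross-linking, 14 of 15 genes tested lay apart and higher in HFD (median 0.86) and 7 of 15 at 4 °C (median 0.17). Pcolce, which enhances removal of the procollagen C-propeptide, had 6.11 and 5.45 FPKM in CD and 41.2 and 27.5 FPKM in HFD (2.36, SE 0.38, adjusted p = 0.118). Loxl1, a lysyl oxidase of elastic fibres, had 2.38 and 3.98 FPKM at 22 °C and 10.2 and 8.999 FPKM at 4 °C (1.37, SE 0.25, adjusted p = 0.0592).

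Among the proteoglycan and glycoprotein substrates, 8 of 13 genes tested lay apart and higher in HFD (median 0.71) and 4 of 12 at 4 °C (median 0.28). Thbs1, a matrix glycoprotein, had 1.19 and 1.35 FPKM in CD and 5.91 and 8.09 FPKM in HFD (log2 fold change 1.80, SE 0.30, adjusted p = 0.120). Versican (Vcan), the proteoglycan that several ADAMTS members cut, overlapped between diets, at 1.58 and 0.514 FPKM in CD and 1.54 and 4.70 FPKM in HFD. Aggrecan (Acan) stayed under 0.1 FPKM in all libraries. Of the ADAM sheddases, membrane proteases related to ADAMTS, 9 of 10 tested lay apart and higher in HFD (median 0.48), led by Adam8, a protease of macrophages and neutrophils, with 2.48 and 0.217 FPKM in CD and 9.58 and 11.9 FPKM in HFD (2.50, SE 0.49, adjusted p = 0.144). At 4 °C 5 of the 10 were higher and 2 lower without overlap. Of the MMP regulators, 4 of 9 lay apart and higher in HFD and 5 of 9 at 4 °C, and of the 8 cathepsins 4 and 3. For single genes, the share of all genes tested that lie apart and higher is the background given above, 39.9% for diet and 37.9% for cold. The lists' medians stand beside a median over all genes tested of 0.18 for diet and 0.07 for cold.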

How the data were processed

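BAT RNA of 8 mice was sequenced in 4 groups of 2, taken from the sample labels. The authors depleted ribosomal RNA, made directional paired-end libraries, mapped them to GRCm38 and deposited FPKM per gene and library, without pooling. The submitters' processing notes name FastQC 0.10.1, TopHat2 2.0.10, STAR, Cufflinks 2.2.1, DESeq2 and R 3.2.2. Counts were not used here, so the authors' DESeq2 test was replaced by limma 3.58.1 in R 4.3.3 (lmFit, eBayes with trend, two-sided) on log2(FPKM + 1), which understates the change of low genes. Each fit held the 4 libraries of its groups, the autosomal genes that reached 0.1 FPKM in 2 or more of them (17477 for cold, 17543 for diet) and no covariate. Adjustment was by Benjamini-Hochberg across every gene of the fit. X, Y and mitochondrial genes were left out. A gene passed with an adjusted p under 0.05 and a 2-fold change in either direction (1 on the log2 scale).

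In genes of 1 transcript, 97.9% to 98.7% of the low values tested were whole multiples of 1 fragment within 0.1 fragment. Fragment numbers were computed with that step on the longest transcript, are approximate and cover counting error only. Gene positions came from the table and matched GENCODE M21 for 36 of 44 members. Overlapping genes came from GENCODE M21 and promoters from RefSeq. Tables used Python 3.11.15 with pandas 2.3.3.

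Members with a group mean of at least 1 FPKM, the 3 largest changes each way, members past the threshold and, of each related list, up to 4 genes by size of change were to be named. The others named were chosen after their values were seen. The members and lists were chosen with earlier results of these data known. Alternatives were another pseudocount (0.1), no filter or 1 FPKM, median centring, quantile normalization, eBayes without trend, all 8 libraries in 1 fit, library type or muscle score as covariate, values within library types, and each library left out. Code was tested on simulated data. One gene of the Mmp family and the Adamts-like genes are not reported here, and protein sequences were not used here.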

Additional observations from a re-analysis of the deposited data

Results flagged for a closer look

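Timp1, the X-linked inhibitor and therefore no member, is listed at 0 in both 22 °C libraries and CD replicate 6, where all X genes are listed at 0. Among the libraries that list X genes it stood at 0.646 and 0.263 FPKM at 4 °C, 0.328 FPKM in CD replicate 8 and 4.63 and 10.8 FPKM in HFD, so that a signal outside the members' comparisons lay above the sole CD library with X genes. The difference was not tested, since CD has 1 such library.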

How the results depend on the processing

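No paired analysis was possible because 22 °C and 4 °C share no replicate number and CD and HFD share only number 6. With 1 library left in a group, limma assumes that it varies like the other group. The number of members past the threshold of limma was 0 to 1 for cold and 0 to 2 for diet when a library was left out, where 0.00595% to 4.55% and 0.584% to 4.22% of all genes passed, and 4 for diet with library type as a covariate (4.25% of all genes). Here and below the cause was not tested.

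For cold, members at a 2-fold higher level numbered 0 after median centring and after quantile normalization, 1 with the muscle score, 0 and 5 within satellite-high and satellite-low libraries, and 0 to 5 with a library left out. The members' median log2 fold change was 0.44 at a pseudocount of 0.1, 0.03 with no filter and 0.33 at 1 FPKM. It was 0.007 after centring, 0.16 after quantile normalization and 0.13 with the muscle score. The median was -0.015 and 0.56 within the library types and 0.016 to 0.53 with a library left out. Members apart and higher numbered 5 after centring (20.4% of all genes) and 10 to 20 with a library left out (44.4% to 57.8%), which was chosen after seeing the data and where 1 library in a group makes lying apart more frequent. Members apart and lower numbered 7 after centring, 1 at a filter of 1 FPKM, 10 with no filter and 4 to 7 with a library left out (27.5% to 36.2% of all genes). Without 4 °C replicate 11, 5 members were at a 2-fold higher level and 20 apart and higher (57.8% of all genes). Without 22 °C replicate 4, 17 were apart and higher (46.2%).

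For diet, members at a 2-fold higher level numbered 15 at a pseudocount of 0.1, 1 after centring, 1 after quantile normalization, 9 with the muscle score, 9 within satellite-low libraries and 3 to 7 with a library left out (7 without HFD replicate 2). The median was 1.01 at a pseudocount of 0.1, 0.21 with no filter, 0.91 at 1 FPKM, 0.19 after centring, 0.33 after quantile normalization, 0.61 with the muscle score and 0.48 to 0.74 with a library left out. Members apart and higher numbered 10 after centring (11.5% of all genes), 15 at 1 FPKM (39.7%) and, also chosen after seeing the data, 21 with 0.1 FPKM required in both groups. Members apart and lower numbered 2 after centring, 1 after quantile normalization, 1 with no filter and 0 to 1 with a library left out (9.06% to 20.03% of all genes).

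Single members turned direction for cold after centring (Timp2 -0.024, Mmp11 -0.21, Mmp9 -0.20, Adamts3 -0.032, Mmp17 -0.070), after quantile normalization (Timp3 -0.021, Timp2 -0.15, Mmp11 -0.054, Mmp9 -0.066) and with the muscle score (Timp2 -0.51, Adamts10 0.36, Mmp14 -0.15, Mmp11 -0.18, Mmp9 -0.59). They also turned within satellite-high libraries (Timp2 -0.45, Adamts10 0.13, Mmp14 -0.29, Mmp3 -0.20, Adamts2 -0.053, Adamts5 -0.15, Mmp11 -0.24, Mmp9 -0.35) and within satellite-low libraries (Mmp2 0.48, Mmp23 0.19). With a library left out, values ran from -0.21 to 0.66 for Timp2, -0.38 to 0.35 for Mmp2, -0.34 to 0.26 for Mmp23, -0.21 to 0.11 for Adamts10, -0.14 to 0.22 for Mmp11, -0.19 to 0.30 for Mmp9, -0.011 to 0.75 for Mmp19, -0.060 to 0.57 for Mmp14 and -0.10 to 0.74 for Adamts5. For diet the turns were after centring (Mmp15 -0.16, Mmp11 -0.15, Adamts4 -0.054, Adamts7 -0.11, Mmp17 -0.22, Adamts14 -0.13, Mmp24 -0.29), after quantile normalization (Mmp15 -0.11, Mmp11 -0.089), within satellite-low libraries (Adamts3 0.015) and for Mmp15 with a library left out (-0.0069 to 0.39).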
